A study of Homo sapiens with 6 samples.

Results

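The autophagy core genes were 36 genes chosen by name for their place in the canonical autophagy pathway, out of 19775 genes that the platform annotation names alone on at least 1 probe set. All 36 were on the array, with 93 of the 54613 probe sets between them, and each gene was read at the probe set with the highest mean log2 signal over all 6 arrays. The cells were Flp-In T-REx 293, made from HEK293 (a human embryonic kidney line) by adding a genomic site into which a transgene can be placed. In the TET siRNA group, 3 clones received siRNAs against TET1, TET2 and TET3 at the same time, and in the non-targeting siRNA group the same 3 clones received a pool of non-targeting siRNAs. Both groups were sampled at 96 h, and the clones of both groups held a stably integrated GFP transgene under an inducible promoter, left uninduced. Each clone thus had 1 array per group. The main p-values rest in part on how the difference between the groups varied over 3 clones of 1 cell line, not on the spread between the clones. With so few arrays, limma draws each variance towards that of other probe sets of like signal. An SE can thus differ much from what a gene's own clones give. MAP1LC3B, for example, had clone differences of -0.011, -0.015 and -0.039 on the log2 scale and an SE of 0.068.

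Autophagy encloses cytoplasm in a double membrane, the autophagosome, and delivers it to lysosomes. The ULK1 kinase complex starts the process, the class III PI3-kinase complex marks the membrane with phosphatidylinositol 3-phosphate, ATG9 vesicles and ATG2 proteins supply lipid, and 2 ubiquitin-like conjugation systems attach ATG8-family proteins to the membrane, where cargo receptors such as p62 bind them. Much of this control is on proteins (phosphorylation by mTORC1 and AMPK, lipidation, degradation), and arrays measure RNA only. TET1, TET2 and TET3 oxidise 5-methylcytosine, which in most human cells lies mainly at CpG dinucleotides, and the comparison asks which transcripts differ when the 3 enzymes are depleted together.

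RefSeq start-site windows (GRCh38.p14, 250 bases before to 50 after the annotated start) were found for 32 of the 36 genes, in 42 entries, and not for ATG4D, MAP1LC3A, RB1CC1 and UVRAG. The windows of the autophagy genes held a median of 26 CpG dinucleotides (2 to 50), against 14 over all 35116 entries of the table. Those entries cover 27305 genes, many of them not among the 12318 genes tested here, while all 36 autophagy genes were tested. The 2 sets thus differ in more than the pathway. Methylation was not measured in these samples. The windows of ATG4A, ATG2A and WIPI1 are shown because these 3 genes, described below, were among the 5 with the smallest p and have 1 entry each. CpG dinucleotides are in capitals, 25, 28 and 34 of them in that order.
ATG4A, chrX:108091528-108091827, plus strand, CpG in capitals: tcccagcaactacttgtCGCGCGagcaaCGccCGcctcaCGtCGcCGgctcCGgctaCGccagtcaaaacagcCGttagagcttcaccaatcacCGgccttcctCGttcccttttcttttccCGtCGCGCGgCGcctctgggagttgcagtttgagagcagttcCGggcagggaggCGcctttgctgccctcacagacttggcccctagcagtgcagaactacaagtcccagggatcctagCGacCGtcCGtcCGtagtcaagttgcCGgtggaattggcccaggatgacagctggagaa
ATG2A, chr11:64917160-64917459, minus strand, CpG in capitals: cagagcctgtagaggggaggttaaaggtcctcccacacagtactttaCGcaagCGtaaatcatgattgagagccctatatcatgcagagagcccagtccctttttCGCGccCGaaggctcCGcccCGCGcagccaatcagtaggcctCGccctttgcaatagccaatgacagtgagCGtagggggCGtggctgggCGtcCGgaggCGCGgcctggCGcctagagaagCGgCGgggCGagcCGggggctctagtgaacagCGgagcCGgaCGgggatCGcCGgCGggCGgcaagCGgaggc
WIPI1, chr17:68457447-68457746, minus strand, CpG in capitals: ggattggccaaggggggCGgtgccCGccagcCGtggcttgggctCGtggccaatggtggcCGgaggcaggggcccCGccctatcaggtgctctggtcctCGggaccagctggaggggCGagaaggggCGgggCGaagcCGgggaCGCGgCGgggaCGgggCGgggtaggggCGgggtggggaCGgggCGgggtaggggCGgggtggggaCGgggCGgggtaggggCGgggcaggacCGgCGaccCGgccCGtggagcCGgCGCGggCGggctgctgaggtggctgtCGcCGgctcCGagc

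TFEB, the transcription factor among the members, binds a palindromic element with the core CACGTG, and TCACGTGA is a longer form of it. Both words read the same on both strands, and a match of the longer word is always one of the shorter too. The shorter word, CACGTG, occurred in 2 of the 42 windows (4.76%, ATG3 and ATG14), against 7.26% of all entries. TCACGTGA occurred in 1 window (2.38%), that of ATG3, against 0.98% of all entries. The ATG3 window, shown as the single one with the longer word, carries it in capitals, and a match of letters is no evidence of binding.
ATG3, chr3:112561913-112562212, minus strand, TCACGTGA in capitals: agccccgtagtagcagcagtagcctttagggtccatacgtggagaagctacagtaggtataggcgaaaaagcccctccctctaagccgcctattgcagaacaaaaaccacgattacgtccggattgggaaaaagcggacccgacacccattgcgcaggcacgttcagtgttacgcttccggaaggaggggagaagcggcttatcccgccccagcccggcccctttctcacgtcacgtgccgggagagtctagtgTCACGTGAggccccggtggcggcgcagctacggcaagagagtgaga

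The siRNA targets were lower on every TET siRNA array. TET1 had signals of 448, 621 and 685 with TET siRNA and 3073, 3123 and 3470 with non-targeting siRNA, TET2 had 417, 283 and 442 against 868, 715 and 820, and TET3 had 505, 594 and 537 against 1451, 1240 and 1138, each listed for clones 1, 2 and 3. That left 17.9, 46.8 and 42.9% of the non-targeting level of TET1, TET2 and TET3 (limma adjusted p over all probe sets 0.000194, 0.0335 and 0.0196, and 0.0033, 0.327 and 0.1 without the clone as a block). Of genes known in HEK293 cells, 6 of 6 (NEFL, NEFM, VIM, KRT8, KRT18 and PAX2) lay in the upper 50% of probe sets by signal, while 4 of 6 markers of other cell types (PTPRC, CD3E, ALB and COL1A2) lay below it and PECAM1 and COL1A1 above it. Any pair of arrays correlated at 0.934 to 0.944 (Pearson, log2 signal), and having only 3 arrays a group bounds how finely any difference is known.

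No autophagy core gene passed the threshold. In a limma fit across 27307 probe sets with the clone as a replicate block (adjusted p under 0.05, Benjamini-Hochberg over all tested probe sets), 0 of 36 members were higher and 0 of 36 were lower, where 0.479% of all 12318 tested genes were called higher and 0.836% lower (1.32% together), each gene by its brightest probe set. The smallest adjusted p among members was 0.165. At an unadjusted p under 0.05 there were 5 of 36 members (13.9%), a share near the 16.1% of all tested genes. These were ATG4A, ATG4D, ATG2A and SQSTM1 with higher values under TET siRNA (4 of 36, against 8.61% of all genes) and WIPI1 with lower values (1 of 36, against 7.53%). Without the block, 0 members passed as well and 2 had an unadjusted p under 0.05 (ATG4A and WIPI1), where 0.0162% and 6.96% of all genes did.

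**Figure D1:**
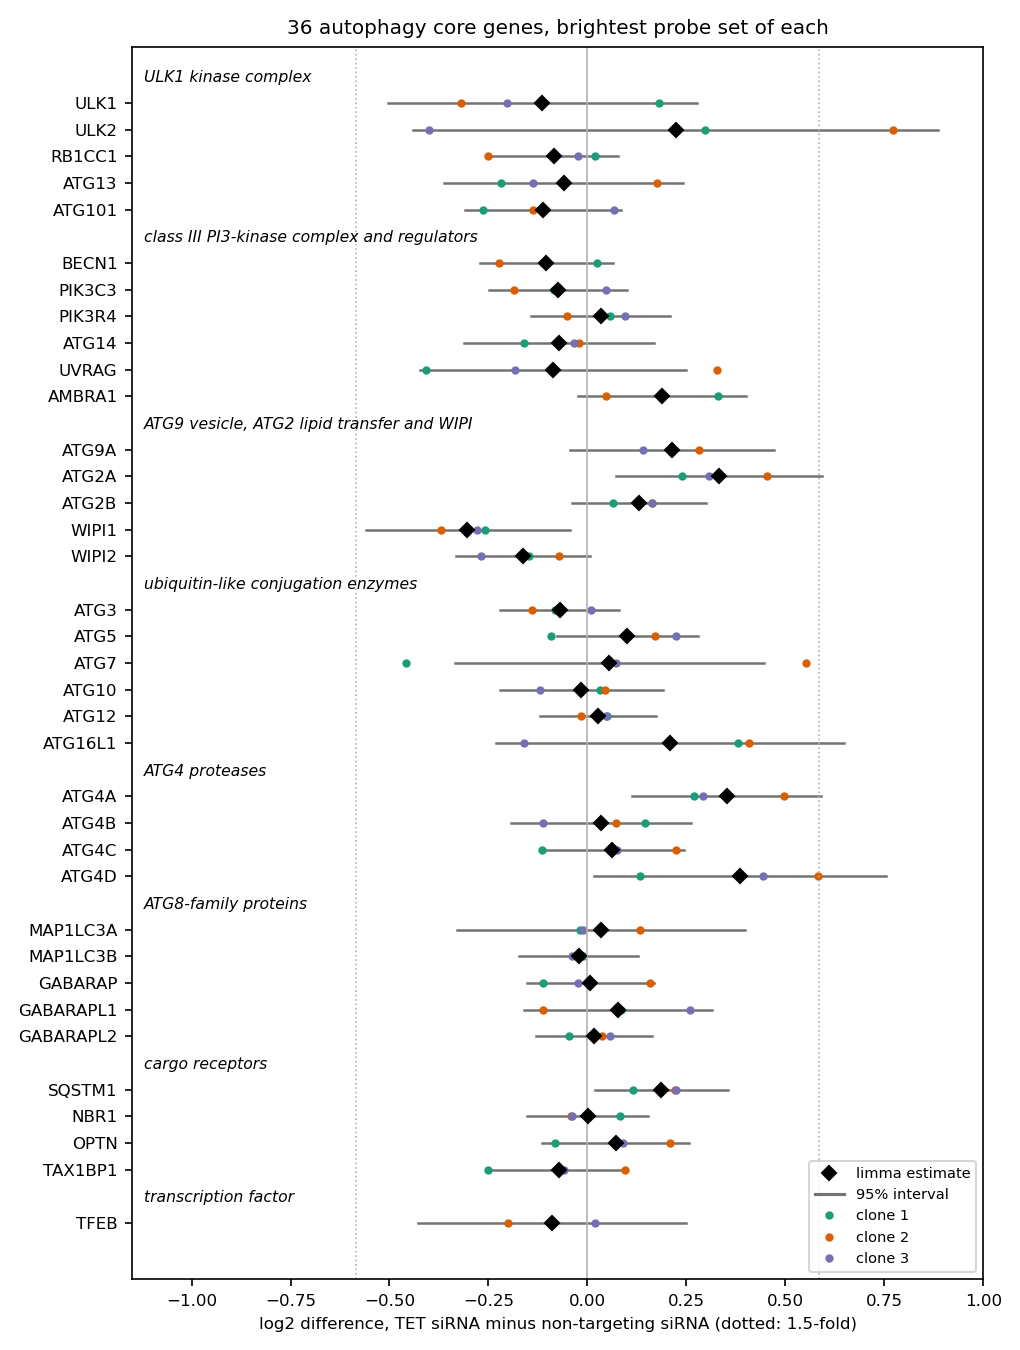
Log2 differences of MAS5 signal, TET siRNA minus non-targeting siRNA, for the 36 autophagy core genes by role: black diamonds are limma estimates with 95% intervals, coloured points the differences within clones 1, 2 and 3 and dotted lines a 1.5-fold difference. Estimates run from -0.30 to 0.39, and 31 of the 36 intervals lie between the dotted lines.

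The log2 differences of the members ran from -0.30 to 0.39 with a median size of 0.08, against 0.11 over all tested genes, and the median signed difference was 0.021 (0.007 over all genes), 21 of the 36 above 0 (58.3%, against 51.8% of all genes). The 3 clones had the same sign in 11 members, 7 higher and 4 lower, where 37.9% of all genes had it (19.9% higher and 18% lower). Within clones 1, 2 and 3 the members' median was 0.005, 0.06 and 0.014, and it was -0.013 in the fit without the arrays of clone 2. For 31 of the 36 members the 95% interval of the fold change lay within 1.5-fold either way (76% of all tested genes), and for 36 of 36 within 2-fold (94.7%). The 5 with an interval reaching past 1.5-fold were ATG4A, ATG4D and ATG2A, described below, and ULK2 (0.737 to 1.85) and ATG16L1 (0.852 to 1.57). These intervals hold for 1 gene at a time and are not adjusted for the number of genes. In a culture, fewer cells expressing a gene and less RNA per cell cannot be told apart.

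**Figure D2:**
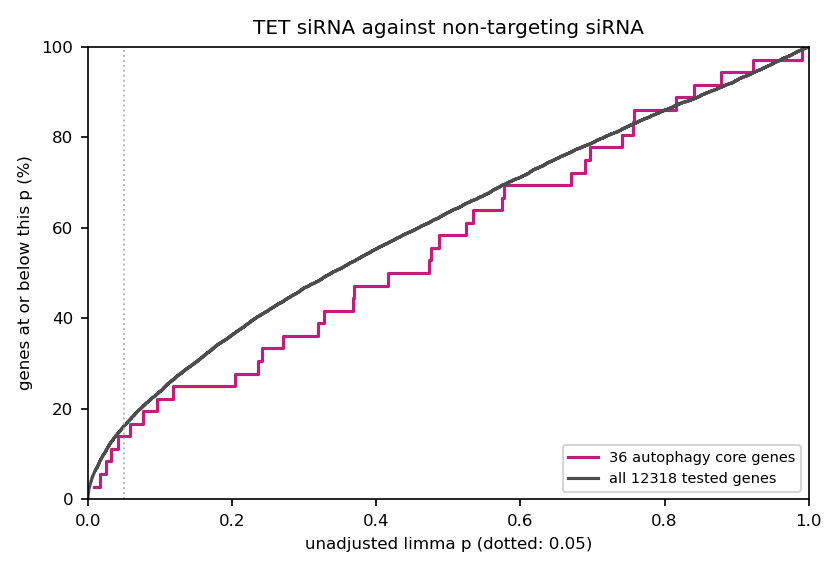
Share of genes at or below each unadjusted limma p, for the 36 autophagy core genes and all 12318 tested genes. At 0.05 (dotted) the shares are 13.9% of the members and 16.1% of all tested genes.

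The ULK1 complex holds the kinases ULK1 and ULK2, the scaffold RB1CC1 (FIP200) and the adaptors ATG13 and ATG101. ATG101, the partner that stabilises ATG13, had signals of 2191, 2001 and 2479 with TET siRNA against 2632, 2202 and 2368 with non-targeting siRNA in clones 1, 2 and 3 (log2 difference -0.11, SE 0.09, limma adjusted p = 0.623). RB1CC1 had 8202, 6949 and 7132 against 8087, 8275 and 7249 (log2 difference -0.09, SE 0.07, adjusted p = 0.657), and the groups overlapped for both genes. ULK1 itself had 365, 299 and 317 against 322, 373 and 365, higher in clone 1 and lower in clones 2 and 3. ATG13 had a log2 difference of -0.06, and -0.05 and 0.001 at its dimmer probe sets. ULK2 was the least precise member, at 199, 169 and 122 against 162, 99.1 and 161, with a log2 difference of 0.22 and an SE of 0.30.

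The class III PI3-kinase complex is built from the lipid kinase PIK3C3 (VPS34), its regulatory subunit PIK3R4 (VPS15) and Beclin 1, with ATG14 or UVRAG as alternative partners and AMBRA1 as a regulator of Beclin 1. AMBRA1 had signals of 1986, 1530 and 1540 with TET siRNA against 1578, 1479 and 1354 with non-targeting siRNA, higher in 3 of 3 clones but with overlapping groups (log2 difference 0.19, SE 0.10, limma adjusted p = 0.410). Its dimmer tested probe set gave 0.02, higher in clone 1 and lower in clones 2 and 3. BECN1 had 4447, 3146 and 3499 against 4369, 3675 and 3782, with clone 1 above the other clones in both groups (log2 difference -0.10, SE 0.08, adjusted p = 0.591). PIK3C3 (-0.075), PIK3R4 (0.03), ATG14 (-0.07) and UVRAG (-0.09) had smaller log2 differences, and their 95% fold intervals lay between 0.746 and 1.19. The 3 dimmer tested probe sets of PIK3C3 had log2 differences of 0.08 to 0.25, opposite in sign to its brightest.

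The proteins that supply and mark the growing membrane had log2 differences of -0.30 to 0.33, the 5 genes split 3 above 0 and 2 below. ATG2A, a lipid transfer protein that bridges the endoplasmic reticulum and the autophagosome precursor, had signals of 940, 904 and 773 with TET siRNA against 797, 660 and 625 with non-targeting siRNA, which averaged 872 ± 87.6 and 694 ± 90.9 (SD, n = 3 each). Each clone was higher under TET siRNA, by 0.24, 0.45 and 0.31 on the log2 scale, but the groups overlapped, since clone 3 under TET siRNA lay below clone 1 under non-targeting siRNA. The log2 difference was 0.33 (SE 0.12) and the fold 95% interval 1.05 to 1.51 (limma adjusted p = 0.223, unadjusted p = 0.0166). Its paralog ATG2B had 0.13 (SE 0.08), with 0.12 to 0.27 at 3 dimmer probe sets. ATG9A, the scramblase of the seed vesicles, had 877, 827 and 780 against 755, 679 and 708, with no overlap between the groups (log2 difference 0.21, SE 0.12, adjusted p = 0.449).

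WIPI1 and WIPI2 bind phosphatidylinositol 3-phosphate, and WIPI2 recruits ATG16L1. WIPI1 had signals of 654, 668 and 722 with TET siRNA against 782, 864 and 875 with non-targeting siRNA, all 3 TET siRNA arrays below all 3 others. Its means were 681 ± 35.8 and 841 ± 50.6 (SD, n = 3 each), a log2 difference of -0.30 (SE 0.12, fold interval 0.678 to 0.969, limma adjusted p = 0.265). The dimmer WIPI1 probe set gave -0.27 with overlapping groups, most of it in clone 1 (-0.66, against -0.05 and -0.10 in clones 2 and 3). WIPI2 had 3039, 3019 and 2928 against 3364, 3173 and 3530 at its brightest probe set, again without overlap (log2 difference -0.16, SE 0.08, adjusted p = 0.370), while its 3 dimmer tested probe sets gave 0.02 to 0.04. Over all members, groups did not overlap for 5 of 36 (13.9%), 3 higher (ATG4A, ATG4D and ATG9A) and 2 lower (WIPI1 and WIPI2), near the 13.2% of all tested genes (6.77% higher, 6.41% lower).

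**Figure D3:**
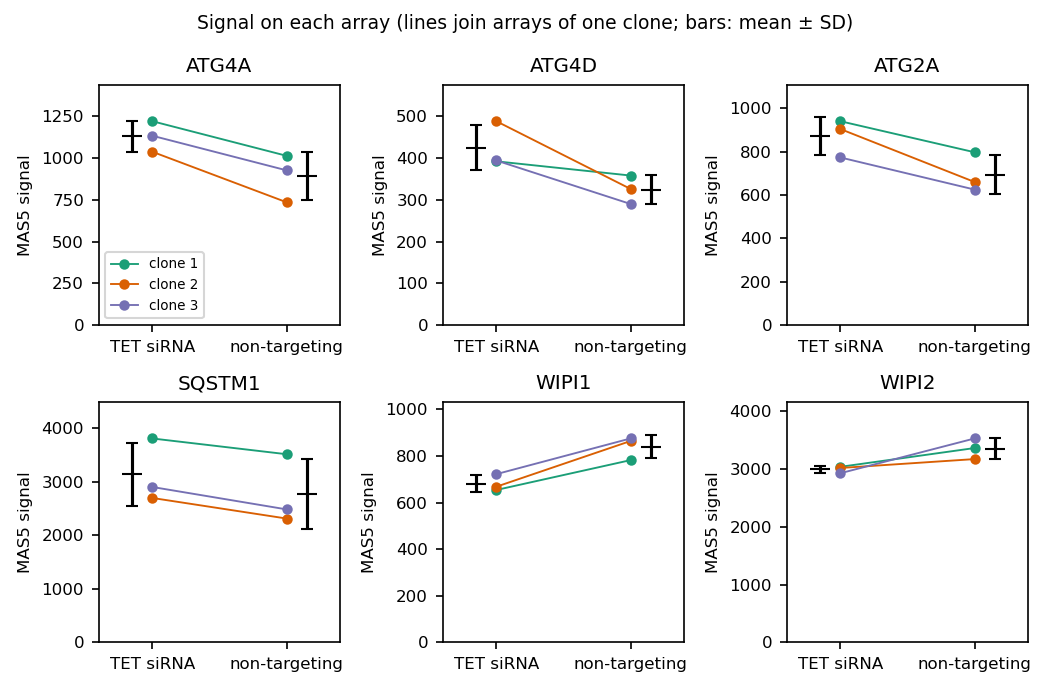
MAS5 signal on each array for 6 members, TET siRNA left and non-targeting siRNA right, with lines joining the arrays of a clone and black bars for mean ± SD. Groups do not overlap for ATG4A, ATG4D, WIPI1 and WIPI2, while for ATG2A and SQSTM1 each clone is higher under TET siRNA but the groups overlap.

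In the conjugation systems, ATG7 is the activating enzyme, ATG3 and ATG10 are the transfer enzymes, and the ATG12-ATG5 conjugate with ATG16L1 directs ATG8-family proteins to the membrane. At the brightest probe sets the log2 differences of the 6 genes ran from -0.07 to 0.21. ATG5 had signals of 4239, 3568 and 4298 with TET siRNA against 4518, 3170 and 3682 with non-targeting siRNA (log2 difference 0.10, SE 0.08, limma adjusted p = 0.628), lower in clone 1 and higher in clones 2 and 3. ATG16L1 had 284, 321 and 287 against 218, 242 and 320 (0.21, SE 0.20, adjusted p = 0.697). ATG12 had 5491, 5458 and 5618 against 5309, 5517 and 5438, a log2 difference of 0.03 with a fold interval of 0.920 to 1.13. ATG3 and ATG10 had -0.07 and -0.015. ATG7 varied most between clones in this group, with differences of -0.46, 0.55 and 0.07 in clones 1, 2 and 3. Dimmer tested probe sets gave -0.08 and 0.19 for ATG5 and -0.02 and -0.09 for ATG12. They gave -0.04 and 0.15 for ATG10 and -0.01 and 0.21 for ATG7. Each of these genes thus had a dimmer probe set opposite in sign to its brightest.

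The ATG4 proteases trim the C-terminus of ATG8-family proteins before conjugation and later release them from lipid. All 4 had differences above 0 at their brightest probe sets, with ATG4B below 0 at its dimmer ones. ATG4A had signals of 1221, 1038 and 1134 with TET siRNA against 1014, 736 and 927 with non-targeting siRNA, and the lowest TET siRNA array lay just above the highest of the others. Its means were 1131 ± 91.8 and 892 ± 142.6 (SD, n = 3 each), higher in 3 of 3 clones by 0.27, 0.50 and 0.29 on the log2 scale. The log2 difference of 0.35 (SE 0.11, fold interval 1.08 to 1.51) had the smallest p of any member (0.00794 unadjusted, limma adjusted p = 0.165).

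ATG4D had signals of 392, 488 and 394 with TET siRNA against 358, 326 and 290 with non-targeting siRNA, and the groups did not overlap. Clone 1 differed by 0.13 on the log2 scale and clones 2 and 3 by 0.58 and 0.44, which gave 0.39 (SE 0.17, fold interval 1.01 to 1.69, limma adjusted p = 0.326). ATG4A and ATG4D each have 1 probe set, so no other probe set bears on them. ATG4C had a log2 difference of 0.06, and ATG4B, the family member with the broadest substrate range, had 0.04 at the brightest of 3 probe sets and -0.07 and -0.09 at the others.

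The ATG8-family proteins, which coat the autophagosome once bound to lipid, had log2 differences of -0.022 to 0.078 at the brightest probe sets. GABARAP had signals of 11884, 12949 and 13002 with TET siRNA against 12841, 11604 and 13226 with non-targeting siRNA, a fold interval of 0.899 to 1.12. GABARAPL2 had 12485, 12842 and 12548 against 12899, 12504 and 12067 (fold interval 0.914 to 1.12). MAP1LC3B, the protein followed in most autophagy assays, had 4968, 4258 and 4418 against 5006, 4303 and 4539 (log2 difference -0.022, SE 0.07, limma adjusted p = 0.922), and 0.05 at its dimmer probe set. In these 3 genes the groups overlapped. GABARAPL1 had a log2 difference of 0.08 (SE 0.11, adjusted p = 0.806) and, at its dimmer probe set, -0.09. MAP1LC3A had 0.03 at its brightest probe set (-0.021 after quantile normalization) and -0.47 (SE 0.23, adjusted p = 0.379) at a dimmer one, where signals were 135, 231 and 248 against 257, 286 and 280.

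Cargo receptors link ubiquitinated or damaged material to ATG8-family proteins. SQSTM1 encodes p62, which is itself degraded by autophagy. It had signals of 3808, 2697 and 2902 with TET siRNA against 3514, 2313 and 2484 with non-targeting siRNA. Each clone was higher under TET siRNA (by 0.12, 0.22 and 0.22 on the log2 scale), yet clone 1 under non-targeting siRNA lay above clones 2 and 3 under TET siRNA. The log2 difference was 0.19 (SE 0.08, fold interval 1.01 to 1.28, limma adjusted p = 0.290 with the block and 0.908 without it). The 3 dimmer tested probe sets of SQSTM1 gave -0.12, -0.06 and 0.19. The mean over all its probe sets turned to -0.21. That mean includes 1 probe set too dim to be tested (signals of 34.6 to 149), with a log2 difference of -1.25.

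TAX1BP1 had signals of 6292, 7986 and 7754 with TET siRNA against 7483, 7484 and 8080 with non-targeting siRNA (log2 difference -0.07, SE 0.08, limma adjusted p = 0.734). Its dimmer probe sets gave -0.07 and, opposite in sign, 0.23 (SE 0.12, limma adjusted p = 0.392). NBR1, a receptor related to p62, had 4739, 4709 and 4830 against 4473, 4845 and 4965, a difference of 0.001. OPTN, a receptor for mitochondria and bacteria, had 0.07 at its brightest probe set. A dimmer OPTN probe set had 1752, 1446 and 1537 against 1307, 1135 and 1204, without overlap (log2 difference 0.37, SE 0.10), and its adjusted p of 0.0942 was the smallest of the 73 member probe sets that were tested, of which 0 passed (1.03% of all tested probe sets did) and 6 had an unadjusted p under 0.05 (14.4% of all). TFEB, the master regulator of lysosomal and autophagy genes, had 298, 414 and 488 against 316, 476 and 482 (log2 difference -0.09, SE 0.15, adjusted p = 0.851). Of the 37 dimmer tested probe sets of members, 17 had the sign of the gene's brightest probe set and 20 the opposite sign.

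The range of the 3 clone means was often larger than the treatment difference, but the 2 measures are unlike. A range over 3 means tends to exceed a difference of 2 means even with no clone effect, so comparing them cannot show one. In 27 of the 36 genes (75%, against 77.3% of all tested genes) the treatment difference was smaller in size than the range of the clone means, whose median was 0.20 for members and 0.26 over all tested genes. The F test of the clone term in the same limma fit, added after the values were seen, called 1 member of 36 (2.78%), SQSTM1 (adjusted p = 0.00882), where 10.4% of all genes were called. Clones 2 and 3 of SQSTM1 lay 0.55 and 0.45 below clone 1 on the log2 scale, averaged over both treatments. Its 3 dimmer tested probe sets were split on this. In 1 of them clones 2 and 3 lay above clone 1 by 1.10 and 0.77 (adjusted p = 0.0398). Another had them above by 0.479 and 0.082 (adjusted p = 0.521), and the third below by 0.595 and 0.516 (adjusted p = 0.243). TFEB had the widest clone range (0.66), with clone 1 lowest in both groups (adjusted p = 0.0894), and BECN1 the next smallest p of the clone term (adjusted p = 0.0582), with clone 1 highest.

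**Figure D4:**
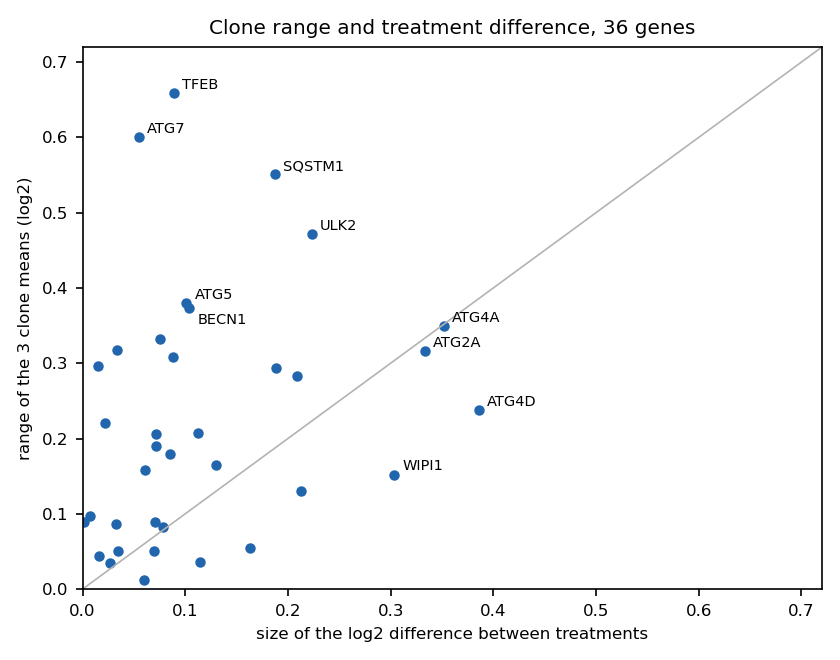
Range of the 3 clone means of log2 signal (vertical) against the size of the log2 difference between TET siRNA and non-targeting siRNA (horizontal) for the 36 autophagy core genes, with a line of equality. In 27 genes the clone range is larger, most of all in TFEB, ATG7 and SQSTM1, and in ATG4D, ATG2A, ATG4A and WIPI1 the treatment difference is the larger of the values. A range over 3 means tends to exceed a difference between group means even with no clone effect.

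Around the core genes, 104 further genes of the pathway were listed in 6 groups, of which 97 were found and 96 tested. Of the 96, 1 passed as higher and 0 as lower, where 0.479% and 0.836% of all tested genes did. At an unadjusted p under 0.05 there were 7 of 96 higher and 6 of 96 lower, both below the 8.61% and 7.53% of all tested genes. The median log2 difference was 0.033, against 0.007 over all tested genes. The gene that passed was TP53INP1, a p53-induced protein that shuttles from the nucleus to autophagosomes. Its signals were 933, 725 and 794 with TET siRNA against 592, 476 and 520 with non-targeting siRNA, without overlap (log2 difference 0.62, SE 0.12, limma adjusted p = 0.0411). The adjusted p was 0.444 without the replicate block, 0.151 without the filter on dim probe sets, 0.0607 after quantile normalization, 0.321 with plain empirical Bayes, and 0.159 to 0.258 when an array or both arrays of clone 1 or clone 3 were left out. DDIT3, a stress-induced transcription factor of the same list of transcriptional regulators, had a log2 difference of -0.37 (adjusted p = 0.147).

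Of 13 tested genes for fusion with the lysosome, 0 passed. TECPR1, a tethering factor, had signals of 1008, 1026 and 930 with TET siRNA against 1394, 1412 and 1231 with non-targeting siRNA (log2 difference -0.44, SE 0.10, limma adjusted p = 0.0646), and its groups did not overlap. SNAP29, a SNARE that pairs with STX17, had -0.33 (adjusted p = 0.165). Of 19 other autophagy factors 0 passed. RETREG1 (FAM134B), a receptor for autophagy of the endoplasmic reticulum, had 1751, 1912 and 2082 against 1267, 1614 and 1509 (0.39, SE 0.09, adjusted p = 0.0795). RUBCN, an inhibitor of the PI3-kinase complex, had 0.31 (SE 0.14, adjusted p = 0.371), with most of it in clone 1 (0.79, against 0.08 and 0.05 in clones 2 and 3).

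Among lysosomal proteins 0 of 17 passed. SCARB2, the carrier of glucocerebrosidase, had a log2 difference of -0.28 (SE 0.07, limma adjusted p = 0.0823) and the hydrolase GLA -0.22 (adjusted p = 0.205). V-ATPase subunits, which acidify the lysosome, had 0 of 14 past the threshold. Their median log2 difference was 0.14 (0.007 over all tested genes) and 11 of 14 lay above 0 (51.8% of all tested genes), which describes the list and was not tested. The 14 include the accessory proteins ATP6AP1 and ATP6AP2, both above 0. Subunits left off the list went both ways. ATP6V0A2 (-0.171), ATP6V0D2 (-0.41) and ATP6V1E2 (-0.068) lay below 0, and ATP6V0E2 (0.142) and ATP6V1C2 (0.075) above it. In the list, the smallest p-values were those of ATP6V0B (0.25, adjusted p = 0.143) and ATP6AP1 (0.20, adjusted p = 0.252). In mTORC1, TSC and AMPK 0 of 24 passed, with a median of 0.024, and MLST8 (0.36, adjusted p = 0.165) and PRKAB2 (0.21, adjusted p = 0.256) had the smallest p-values.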

How the data were processed

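Arrays of biotin-labelled cRNA from total RNA were read in 6 samples. The authors deposited 1 intensity per probe set and array, not log-transformed, which the submitters' processing notes name as MAS5 without a version. The trimmed mean was alike on all arrays (994.7 to 994.9 after 62 control probe sets were set aside). MAS5 scaling to a fixed trimmed mean gives this in any case, so it cannot show that the arrays were otherwise alike. No further normalization was applied in the main fit, and quantile normalization was run as an alternative. MAS5 leaves dim probe sets noisy, and detection calls, hybridisation order and scanner files were not used here.

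Names came from the platform annotation where it gave a single gene (41091 of 54613 probe sets). Signals were taken to log2, probe sets whose mean log2 signal lay in the upper 50% were kept (27307, geometric mean signal at least 117), and TET siRNA was compared with non-targeting siRNA in limma 3.58.1 (R 4.3.3) with the clone as a block and trended, robust empirical Bayes, two-sided. SEs and 95% intervals are the fit's, and values after ± are SDs over 3 arrays. The TET genes were read from the same fit with no filter. The labels give the clone in both groups. After each group's mean was subtracted, the arrays of 1 clone correlated at 0.493, 0.234 and 0.236, in clone order. Arrays of different clones reached 0.219 at most. Only clone 1 thus lay well above that limit, and the values of 0.234 and 0.236 lay just above it. The limma fit alone was run on simulated data with planted differences and independent noise. The required check was the slope of estimated on planted differences, which bears on the code and not on error rates in these arrays.

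The members and lists were chosen with earlier results of these data known. All members are accounted for. Log2 differences with adjusted p are given for the 2 members of smallest p in each role group and for members whose groups do not overlap. The same holds for up to 4 passing genes or else the 2 of smallest p in each further list. Signals and SEs are given for only some of these genes. Plots were drawn with matplotlib 3.10.9.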

Additional observations from a re-analysis of the deposited data

How the results depend on the processing

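In the 16 alternatives 0 of the members passed an adjusted p of 0.05, and the smallest adjusted p of any member was 0.124 (ATG4A, upper 30% of probe sets by signal). With the clone as a block, leaving out either array of a clone removes that clone's difference, so these values are close to those without the clone. The count at an unadjusted p under 0.05 was 2 without the replicate block and 1 to 3 with arrays left out, against 5, and it was 1 without either replicate 3 array. The members' median was -0.013 to 0.034 with arrays left out, below 0 whenever an array of clone 2 was missing. Of the further pathway genes, 2 passed among the upper 30% (TECPR1 and TP53INP1), 0 without the block, without the filter, with quantile normalization, with plain empirical Bayes or with the mean of all probe sets, where TP53INP1 was not bright enough to be tested, and 0 to 3 with arrays left out, where RETREG1 and SCARB2 joined TP53INP1 without an array of clone 2. Of the 3 TET genes, 1 passed without the block, 0 with plain empirical Bayes, 1 with the mean of all probe sets and 1 to 2 with arrays left out.

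The sign of 19 members changed in at least 1 alternative, none of them a called value, and 17 kept it in all. With the mean of all probe sets the log2 differences were 0.206 for ATG10, -0.028 for ATG12, -0.04 for ATG4B, 0.249 for BECN1, -0.004 for GABARAPL1, -0.197 for MAP1LC3A, 0.014 for MAP1LC3B, 0.389 for PIK3C3, -0.211 for SQSTM1, 0.03 for TAX1BP1 and 0.1 for TFEB. That mean gives dim and bright probe sets equal weight. MAP1LC3A had -0.021 with quantile normalization. With arrays left out the ranges were -0.178 to 0.018 for ATG13, -0.295 to 0.072 for UVRAG, -0.02 to 0.109 for ATG4B, -0.04 to 0.022 for NBR1, -0.155 to 0.017 for TAX1BP1, -0.051 to 0.534 for ULK2, -0.193 to 0.312 for ATG7, -0.02 to 0.149 for ATG4C, -0.015 to 0.06 for MAP1LC3A, -0.068 to 0.067 for GABARAP, -0.045 to 0.038 for ATG10, -0.013 to 0.172 for GABARAPL1 and -0.004 to 0.047 for GABARAPL2. The cause was not tested. ATG4A kept its sign in 16 of 16 alternatives, with a log2 difference of 0.279 to 0.394 and an adjusted p of 0.124 to 0.749.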
